A study of Mus musculus with 51 samples.

Results

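The phosphoinositide 3-kinase (PI3K) to AKT pathway was followed at the transcript level in mouse ventral prostate through 6 genes: Akt1, Akt2, Pik3ca, Pik3r1, Pdpk1 and Gsk3b. These are 6 of the 12393 genes with a single-symbol probe set. Members were all probe sets annotated to exactly one of these symbols, which gave 12 of the 22626 probe sets on the arrays. Akt1 is described apart, because the transgenic mice of this study are labelled FVB-AKT1. RNA came from 51 arrays, and every mouse was an FVB mouse aged 8 to 10 weeks on a standard diet. FVB-AKT1 transgenic mice received RAD001 for 12 h (5 arrays), 48 h (4), 6 d (3), 9 d (4) or 15 d (6), or placebo for 12 h (4), 48 h (5), 6 d (1), 9 d (1) or 15 d (7). Wild type FVB mice received placebo for 12 h (4), 48 h (4) or 15 d (3), and no wild type RAD001 group was analysed here. The labels give neither the dose of RAD001 nor the promoter, species or form of the AKT1 transgene, and they do not say whether an Akt1 probe set reads it. The arrays are labelled as biological replicates, with no statement on pooling of animals.

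In this pathway, receptors and adaptor proteins recruit PI3K to the membrane, where its catalytic subunit makes the lipid that draws AKT and PDK1 together. PDK1 and the mTOR complex known as mTORC2 then phosphorylate AKT, which in turn phosphorylates and inhibits GSK3 and other substrates. RAD001 (everolimus) inhibits the other mTOR complex, mTORC1, and so acts below AKT. The pathway is switched on in many prostate cancers. These steps are largely changes of lipids and phosphate groups, whereas the arrays measure only RNA. In whole glands, fewer cells of a type and less RNA per cell cannot be told apart.

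Values are linear intensities as the authors deposited them, in one table of 42 arrays (12 h, 48 h and 15 d) and another of 9 arrays (6 d and 9 d). How each table was scaled is not given in the sources, and levels are not compared between tables. Array medians were 91.6 to 109.3 among the 42 arrays and 98.1 to 110.4 among the 9. Of the 15 d arrays, 5 of 7 transgenic placebo and 4 of 6 RAD001 arrays lay apart from the rest on the component that held 26.5% of the variance. They are called array set B, and the other 2 transgenic placebo, 2 RAD001 and all 3 wild type 15 d arrays set A. Transgenic placebo 15 d replicates 8 and 9, both in set B, also held over 500 values at exactly 0, against at most 388 in any other array of that table. The same was true of 2 RAD001 arrays of the smaller table. Pbsn and Spink1, genes of the secretory prostate epithelium, were above the floor in every array. Of the other luminal and secretory markers, Epcam was at the floor in 1 array of the larger table. None of the 6 seminal vesicle markers passed the filter on low intensity in that table. There Svs6 was at the floor of 16 in 42 of 42 arrays, Svs2 in 41, Svs4 in 8, Pate4 in 1, and Svs3a (31.3 to 69.4) and Svs5 (28.6 to 76.2) in 0. Differences are given as log2 of the first over the second group, with the standard error and the Benjamini-Hochberg adjusted p of limma fitted across all probe sets of the table that passed a filter on low intensity; a call is an adjusted p under 0.05.

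In placebo-treated glands, 4 of the 9 member probe sets that passed the filter were called for genotype averaged over 12 h, 48 h and 15 d: Akt1 1425711_a_at and Akt2 1424480_s_at higher, and Pik3r1 1425515_at and Pik3ca 1460326_at lower in transgenic glands. Of all 13574 probe sets tested, 33.5% were called in this comparison (15.1% higher and 18.4% lower), and with 9 members tested a share of 4 is read against that background only as a description. The change of lowest adjusted p among the members was that of Pik3r1 1425515_at, at -0.69 ± 0.11 (adjusted p = 3.88e-06). At single times, 5 of 9 members were called at 12 h (background 21%), 3 of 9 at 48 h (background 25.6%) and 2 of 9 at 15 d (background 21%). For RAD001 in transgenic glands, no member was called by limma at any time.

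The plot of genotype differences sets the members beside each other by time. The Akt1, Gsk3b and Pik3ca 1423144_at estimates were above 0 at 12 h and highest then, whereas Pik3r1 1425515_at was below 0 by a similar amount at each time. Pik3ca 1460326_at and Pdpk1 1415729_at were also highest at 12 h, at -0.29 and -0.26, but were below 0 at each time. For Pdpk1 the 15 d value of -0.60 ± 0.53 includes a transgenic placebo array listed at 0. The transgenic placebo median at 15 d, 461, was above the wild type median of 425.

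**Figure D1:**
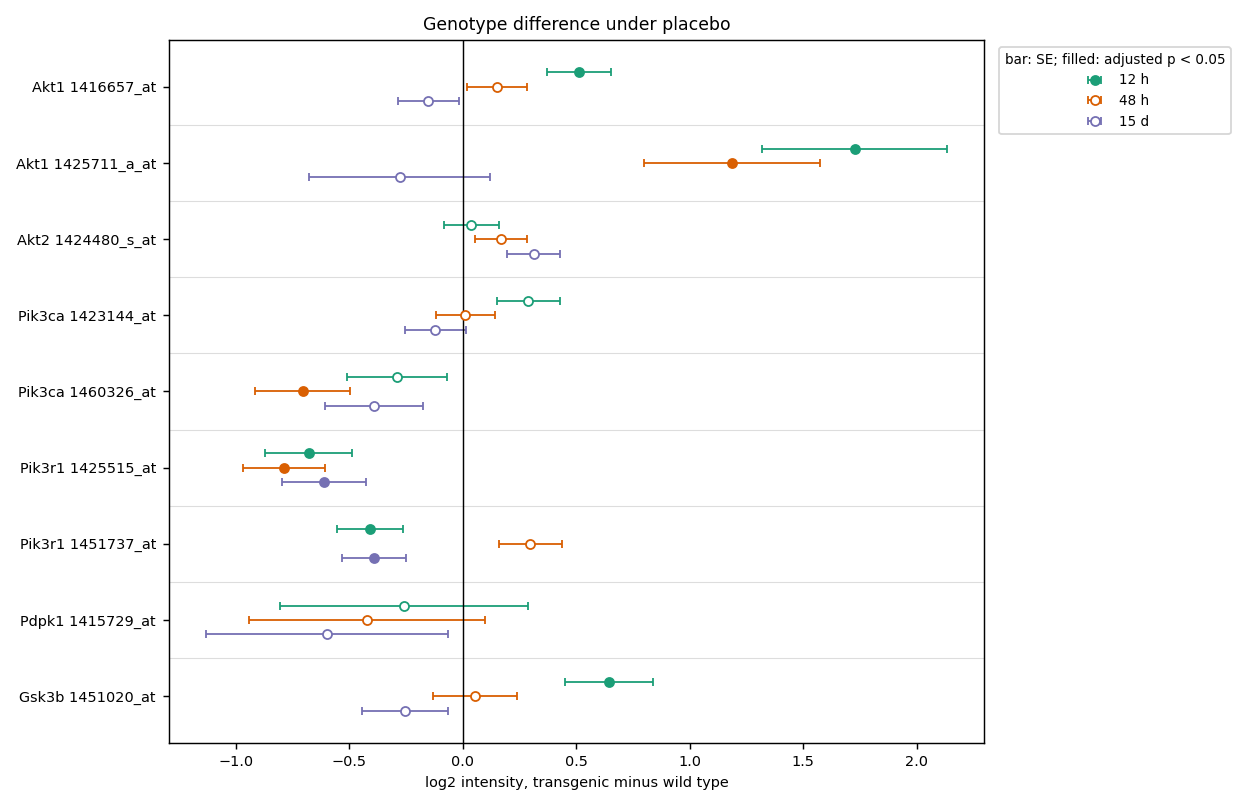
Genotype difference under placebo for the 9 member probe sets that passed the filter (log2 intensity, transgenic minus wild type, at 12 h, 48 h and 15 d; bars are standard errors, filled points have an adjusted p under 0.05). Akt1 1425711_a_at lies at 1.73 at 12 h and -0.28 at 15 d (0.07 without transgenic placebo replicate 9), while Pik3r1 1425515_at stays between -0.79 and -0.61.

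Akt1 encodes the AKT kinase isoform named in the transgene, and its 2 probe sets are read here as possible transgene readouts. Akt1 1425711_a_at had intensities of 172, 201, 161 and 202 in transgenic placebo glands at 12 h, against 39.7, 62.7, 87.0 and 43.3 in wild type glands. At 48 h it had 143, 239, 195, 189 and 101 in transgenic placebo glands, against 53.6, 73.9, 85.2 and 84.2 in wild type glands. At 15 d the transgenic placebo arrays ran from 25.2 through a median of 163 to 210.1, against 106, 134 and 157 in wild type glands. Every transgenic array was above every wild type array at 12 h and 48 h, and at 15 d the groups overlapped. Of all probe sets tested, 15.5% at 12 h and 13.5% at 48 h were higher in transgenic placebo glands without overlap. Another 14.5% and 14.9% were lower without overlap. These shares are the background for each such separation by genotype at 12 h and 48 h described below.

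The genotype difference of Akt1 1425711_a_at was 1.73 ± 0.41 at 12 h (limma adjusted p = 0.00217) and 1.19 ± 0.39 at 48 h (adjusted p = 0.0215). The 48 h call was lost without wild type replicate 1 (1.04, adjusted p = 0.0781). At 15 d the difference was -0.28 ± 0.40 (adjusted p = 0.648). Its sign rested on 1 array: without transgenic placebo replicate 9 the difference was 0.07 (adjusted p = 0.896). The dependence of the genotype difference on time was itself called (adjusted p = 0.0256), but not without array set B (adjusted p = 0.141) or without wild type 15 d replicate 3 (adjusted p = 0.0796). The 15 d values of transgenic placebo replicates 8 and 9, the arrays with many values at 0, were 56.0 and 25.2, the lowest of their group. The difference between times within wild type glands, whose 15 d arrays were all above their 12 h and 48 h arrays, was not called (adjusted p = 0.0855), but was called without the many-zero arrays (adjusted p = 0.00417).

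Akt1 1416657_at, the second probe set, had 836, 781, 795 and 926 in transgenic placebo glands at 12 h, against 615, 665, 424 and 671 in wild type glands. At 48 h it had 870.4, 837, 819, 641 and 819 in transgenic placebo glands, against 659, 703, 872 and 644 in wild type glands. After 15 d the transgenic placebo arrays ran from 617 through a median of 792 to 908, against 969.7, 911 and 717 in wild type glands. The genotypes were fully separated at 12 h and overlapped at 48 h and 15 d. The 12 h difference was 0.51 ± 0.14 (limma adjusted p = 0.00739), and it was no longer called without wild type replicate 3, the array at 424 (0.36, adjusted p = 0.0611). At 48 h it was 0.15 (adjusted p = 0.447) and at 15 d -0.15 (adjusted p = 0.441). Geometric means at 12 h, 48 h and 15 d were 833, 793 and 773 in transgenic placebo glands, against 584, 714 and 859 in wild type glands. The change over time within wild type glands was called, but not without wild type 12 h replicate 3 (adjusted p = 0.0938).

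The 2 Akt1 probe sets were compared within each array as the log2 of 1425711_a_at minus that of 1416657_at. The transgenic minus wild type difference of this quantity was 1.22 at 12 h (exact two-sided permutation p = 0.0857, 0.257 after adjustment over 6 comparisons) and 1.04 at 48 h (exact p = 0.0238, adjusted 0.143). At 15 d it was -0.13 (exact p = 0.9). The smallest p that 4 against 4 arrays allow is 0.0286, so after adjustment over 6 comparisons the 12 h test could not pass on its own. Whether the genotype difference differs between the Akt1 probe sets is therefore not settled by these tests. Over the 42 arrays, which share these groups, the probe sets had a Pearson r of 0.41 and a Spearman rho of 0.26 with each other.

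No RAD001 difference of an Akt1 probe set was called. For 1425711_a_at the RAD001 glands had 275, 181, 235, 161 and 106 at 12 h, and 119, 164, 172 and 142 at 48 h. At 15 d they ran from 144 through a median of 189 to 225. The RAD001 minus placebo differences were -0.01 ± 0.39 at 12 h (limma adjusted p = 0.999), -0.17 ± 0.39 at 48 h (adjusted p = 0.93) and 0.73 ± 0.32 at 15 d (adjusted p = 0.197). The last was 0.12 ± 0.23 (adjusted p = 0.899) without the arrays with many values at 0. In the smaller table, 1425711_a_at had 499, 355 and 714 after 6 d and 357, 208, 393 and 378 after 9 d of RAD001, against single placebo arrays at 479 and 287, and the averaged difference was 0.12 ± 0.31 (adjusted p = 0.953). For 1416657_at the 4 RAD001 differences lay between -0.10 and 0.09. Against wild type glands, which are the same arrays as above, RAD001-treated transgenic glands were higher at 12 h in 1425711_a_at by 1.72 ± 0.39 (adjusted p = 0.00175) and in 1416657_at by 0.41 ± 0.13 (adjusted p = 0.0271). Without wild type replicate 3 the 1416657_at difference was 0.26 and not called (adjusted p = 0.185).

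**Figure D2:**
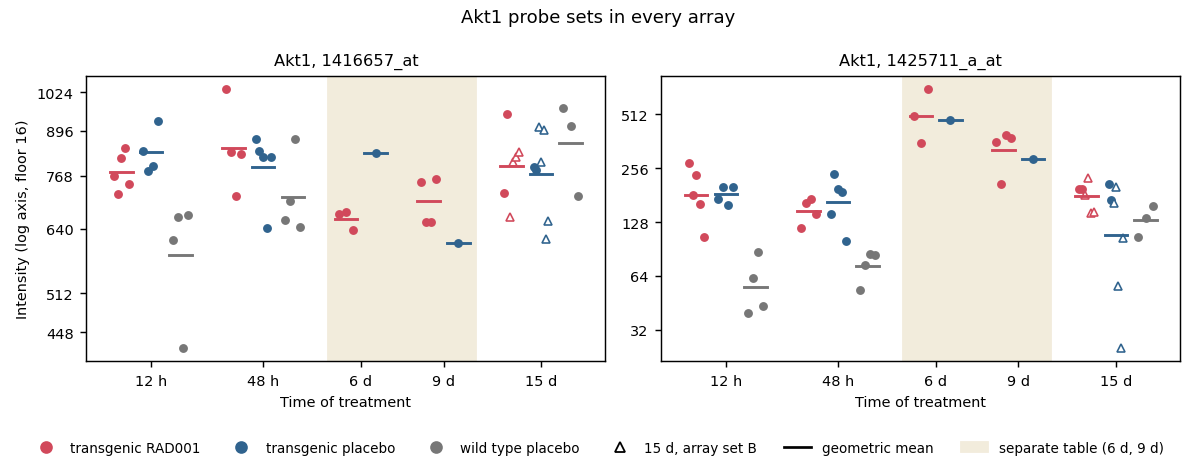
Intensity of the 2 Akt1 probe sets in every array (log axis, values below 16 drawn at 16), by time and, within each time, transgenic RAD001, transgenic placebo and wild type placebo; lines are geometric means, open triangles array set B, and the shaded 6 d and 9 d arrays come from the separate table. In the right panel the wild type arrays lie between 39.7 and 87.0 at 12 h and 48 h, below all transgenic arrays of those times, and between 106 and 157 at 15 d.

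The subunits of PI3K itself come next. Pik3r1 encodes the regulatory subunit p85 alpha, together with shorter forms that start at internal promoters; these proteins stabilise the catalytic subunit, hold it inactive until a receptor is engaged, and bind it to phosphorylated receptors and adaptors. Its 3 probe sets did not all move together, and whether the choice of transcript start has a part in this was not tested. The 2 transcript starts that RefSeq gives for the gene (GRCm38.p6, minus strand of chromosome 13) are shown for reference. Each window runs from 250 bases before to 50 bases after the start, 5′ to 3′, with CG dinucleotides in capitals. The windows are chr13:101768168-101768467 and chr13:101692581-101692880, 75587 bases apart.

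Pik3r1 upstream start: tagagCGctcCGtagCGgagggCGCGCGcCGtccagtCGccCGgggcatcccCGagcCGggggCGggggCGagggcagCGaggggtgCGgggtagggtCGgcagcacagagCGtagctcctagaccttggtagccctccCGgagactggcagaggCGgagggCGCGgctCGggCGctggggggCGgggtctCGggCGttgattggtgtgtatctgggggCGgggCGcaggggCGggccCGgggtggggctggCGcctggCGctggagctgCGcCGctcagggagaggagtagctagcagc
Pik3r1 downstream start: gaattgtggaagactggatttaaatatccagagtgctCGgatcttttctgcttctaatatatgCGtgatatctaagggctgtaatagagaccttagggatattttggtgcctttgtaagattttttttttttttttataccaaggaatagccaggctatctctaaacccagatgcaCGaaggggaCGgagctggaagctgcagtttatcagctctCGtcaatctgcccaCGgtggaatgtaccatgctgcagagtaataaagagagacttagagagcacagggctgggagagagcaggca

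The upstream window holds 34 CG dinucleotides and the downstream window 6, against a median of 7 over the 32851 promoter windows of the table. Of these windows, 7.73% hold 34 or more and 56.4% hold 6 or more. None of the 3 probe sets is assigned here to a transcript from either start.

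Pik3r1 1425515_at had 82.8, 80.1, 94.2 and 83.7 in transgenic placebo glands at 12 h, against 123, 136, 153 and 134 in wild type glands. At 48 h it had 90.8, 87.8, 77.0, 94.4 and 105 in transgenic placebo glands, against 146, 149.6, 175 and 156 in wild type glands. After 15 d the transgenic placebo arrays ran from 88.9 through a median of 108 to 145, against 149, 157 and 205 in wild type glands. The highest transgenic placebo array was below the lowest wild type array at each of the 3 times; groups without overlap were found for 30% of probe sets at 12 h, 28.4% at 48 h and 13.2% at 15 d. The difference was -0.68 ± 0.19 at 12 h (limma adjusted p = 0.00918), -0.79 ± 0.18 at 48 h (adjusted p = 0.00142) and -0.61 ± 0.19 at 15 d (adjusted p = 0.0187). The 15 d value was -0.27 ± 0.25 (adjusted p = 0.737) without array set B, which leaves 2 transgenic placebo arrays, and -0.49 (adjusted p = 0.0798) without the arrays with many values at 0. Without wild type 15 d replicate 3 it was -0.47 (adjusted p = 0.146).

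Smooth muscle markers moved with genotype beside Pik3r1. Of 11 smooth muscle probe sets (9 genes) 9 were lower and 0 higher in transgenic placebo glands, with a median of -0.93, against -0.04 over all probe sets tested. The brightest probe sets of the 9 genes, 1 per gene, were also summed. At 12 h this sum ran from 5385 to 7154 in transgenic placebo glands, against 11050 to 13882 in wild type glands. Acta2 and Tagln, which encode smooth muscle actin and transgelin, were above the floor in every array, while Myh11, Des and Smtn were at the floor in 1 array each. Of 12 fibroblast probe sets 6 were lower and 0 higher, and of 9 luminal and secretory probe sets 6 were higher and 0 lower. The part of tissue composition in the Pik3r1 difference, or in that of any other member, was not tested.

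Pik3r1 1425514_at was dim and did not pass the filter in the larger table. It had 17.6, 29.5, 11.6 and 34.6 in transgenic placebo glands at 12 h, against 75.3, 86.7, 86.6 and 70.3 in wild type glands, and at 48 h 16.1, 33.8, 57.5, 38.9 and 43.8, against 72.0, 96.4, 60.2 and 102. The groups did not overlap at either time. This probe set did not pass the filter and some transgenic arrays lay at or near the floor of 16, so no size of the difference is given. At 15 d the arrays ran from 0 through a median of 70.0 to 142 in transgenic placebo glands, against 43.6, 72.1 and 51.1 in wild type glands.

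Pik3r1 1451737_at behaved differently. It had 301, 207, 214 and 263 in transgenic placebo glands at 12 h, against 303, 397, 263 and 343 in wild type glands. At 48 h it had 247, 241, 268, 235 and 289, against 211, 197, 198 and 226 in wild type glands, with no overlap and the transgenic arrays above. At 15 d it ran from 121 through a median of 163 to 182, against 246, 169 and 210.2 in wild type glands. The genotype difference was -0.41 ± 0.15 at 12 h (limma adjusted p = 0.0416), 0.30 ± 0.14 at 48 h (adjusted p = 0.112) and -0.39 ± 0.14 at 15 d (adjusted p = 0.0464), and its dependence on time was called (adjusted p = 0.0136). The 12 h call was lost without wild type replicate 2, the array at 397 (-0.31, adjusted p = 0.175), and the 15 d call without array set B (-0.19, adjusted p = 0.725) or without wild type replicate 1 (-0.26, adjusted p = 0.323). This probe set also differed between times within wild type glands (adjusted p = 0.00158) and within transgenic placebo glands (adjusted p = 1.27e-05). Without array set B the transgenic placebo change over time was not called (adjusted p = 0.0753). Over time, 47.9% of all probe sets were called in transgenic placebo glands and 24.5% in wild type glands.

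Pik3ca encodes the catalytic subunit p110 alpha, which phosphorylates the membrane lipid that recruits AKT. Pik3ca 1460326_at had 154, 169, 143, 138 and 189 in transgenic placebo glands at 48 h, against 258, 302, 235 and 236 in wild type glands, with no overlap. At 12 h it had 128, 168, 179.9 and 185, against 208, 209, 206 and 179 in wild type glands, and the ranges met only through wild type replicate 4. After 15 d the transgenic placebo arrays ran from 123 through a median of 164 to 282, against 206, 289 and 218 in wild type glands. The fall was -0.71 ± 0.21 at 48 h (limma adjusted p = 0.0115) and -0.46 ± 0.12 averaged over times (adjusted p = 0.00366), while the 12 h value was -0.29 (adjusted p = 0.398) and the 15 d value -0.39 (adjusted p = 0.19). The 15 d arrays of Pik3ca 1460326_at also divided by set, with 248 and 282 in transgenic placebo arrays of set A and 123 to 177 in those of set B. Without array set B the 15 d value was 0.17 (adjusted p = 0.809) and the average -0.27 ± 0.09 (adjusted p = 0.0232). The second probe set, Pik3ca 1423144_at, gave no genotype call. Its wild type arrays had 73.5, 95.9, 86.7 and 81.5 at 12 h, 95.1, 90.0, 100.3 and 108 at 48 h, and 149.9, 149.6 and 154 at 15 d, a change over time that was called (adjusted p = 0.000281). The Pik3ca probe sets had a Pearson r of 0.08 with each other over the 42 arrays, and 1460326_at had an r of 0.54 with Pik3r1 1425515_at.

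Under RAD001 the PI3K subunits gave no call. Pik3r1 1425515_at had 148, 90.0, 114, 77.7 and 198 in RAD001 glands at 12 h, with 1 of 5 arrays above the wild type range, 1 within it and the other 3 below it. It had 80.5, 128, 118 and 85.4 at 48 h, and from 119 through a median of 139 to 171 at 15 d. The RAD001 minus placebo difference was 0.48 ± 0.18 at 12 h (limma adjusted p = 0.224), 0.16 at 48 h and 0.34 ± 0.15 at 15 d (adjusted p = 0.194). RAD001-treated transgenic glands were below the shared wild type glands at 48 h, by -0.63 ± 0.19 (adjusted p = 0.0255; -0.52 and 0.0915 without RAD001 replicate 1), whereas the values were -0.20 at 12 h (adjusted p = 0.505) and -0.27 at 15 d (adjusted p = 0.449). In the same comparisons 1 of 11 smooth muscle probe sets was called higher under RAD001 at 12 h, 1 at 48 h and 4 at 15 d, and none lower, where 0.626%, 1.97% and 2.42% of all probe sets were called higher. Of 9 luminal and secretory probe sets, 3 were lower at 12 h, 3 at 48 h and 0 at 15 d, and none higher, where 0.84%, 1.47% and 3.1% of all probe sets were called lower. Of 4 basal epithelium probe sets, 0, 2 and 1 were higher at these times, and none lower. For Pik3ca 1460326_at the RAD001 glands had 208, 205, 229, 175 and 242 at 12 h, 248, 164, 149 and 222 at 48 h, and from 128 through 179 to 278 at 15 d. Its differences were 0.36 ± 0.21 at 12 h (adjusted p = 0.531), 0.28 at 48 h and 0.07 at 15 d.

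**Figure D3:**
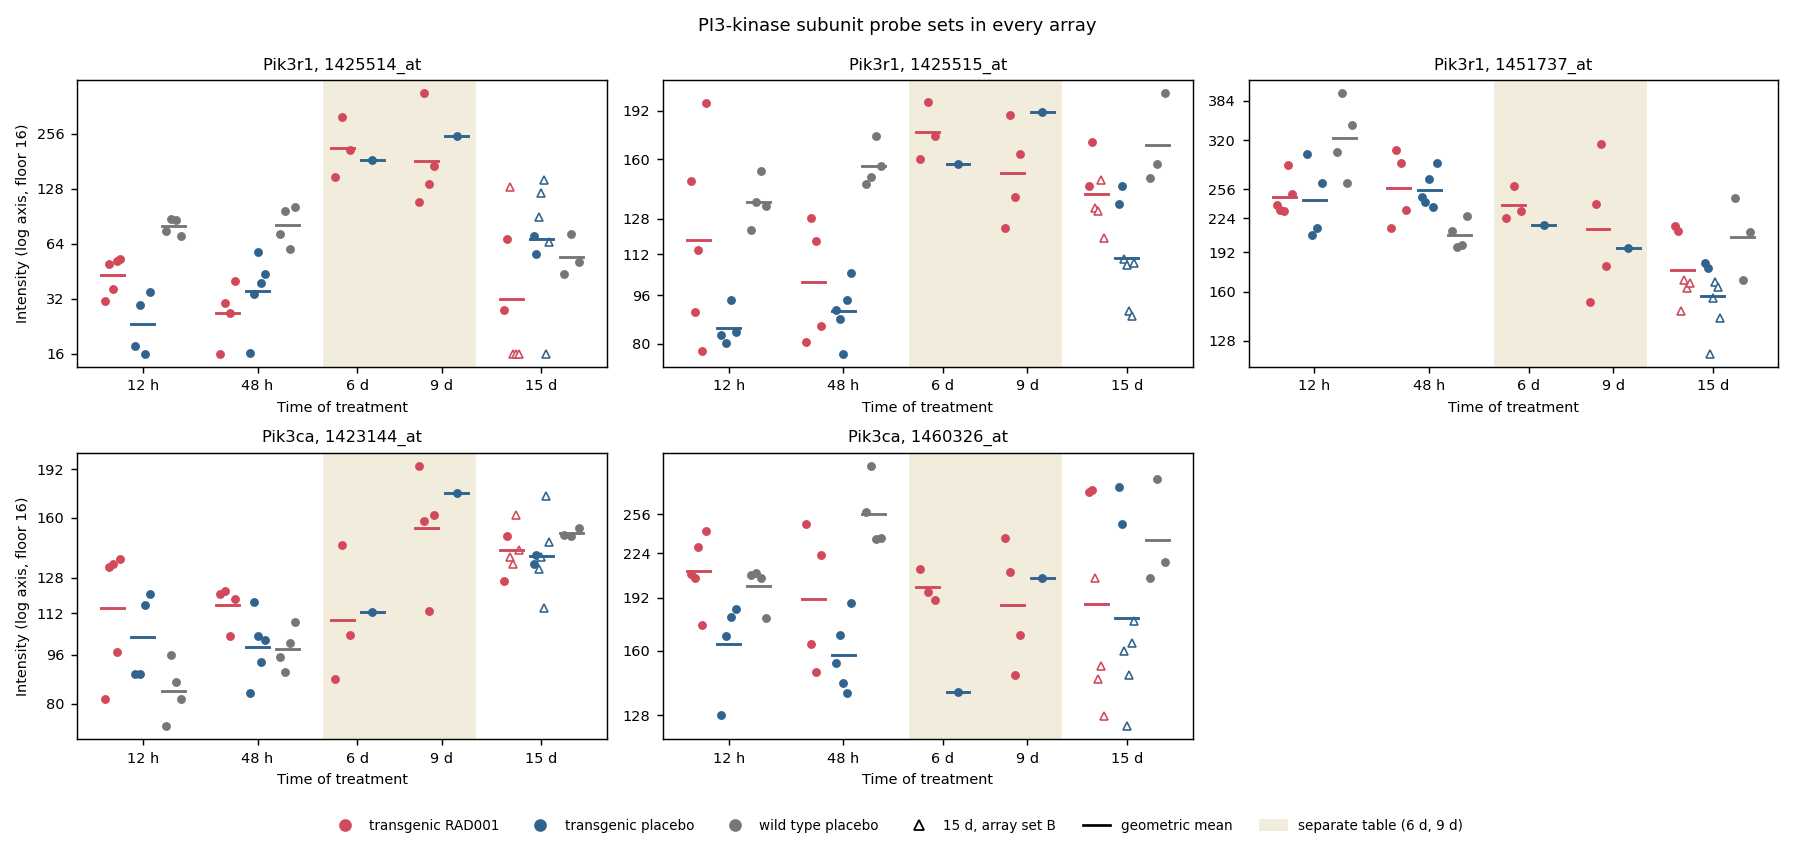
Intensity of the 5 PI3K subunit probe sets in every array, on log axes, with groups, lines and symbols as in the plot of Akt1. For Pik3r1 1425515_at the transgenic placebo arrays (77.0 to 105 at 12 h and 48 h) lie below the wild type arrays (123 to 175), and for Pik3ca 1460326_at the groups separate at 48 h.

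Pdpk1 encodes PDK1, the kinase that phosphorylates the activation loop of AKT. Pdpk1 1415729_at had 341, 307, 371 and 364 in transgenic placebo glands at 12 h, against 425, 377, 419.8 and 429 in wild type glands, and at 48 h 350.5, 388, 358, 315 and 323, against 475, 481, 432 and 468. The transgenic placebo arrays were below the wild type arrays without overlap at both times. The 15 d values ran from 0 through a median of 461 to 527, against 424, 425 and 473, and the value of 0 was transgenic placebo replicate 9, an array with many such values. The 15 d difference with that array included was -0.60 ± 0.53 (limma adjusted p = 0.435), although the transgenic median was above the wild type median. With that array in the fit the standard error was 0.52 at 48 h and the difference of -0.42 was not called (limma adjusted p = 0.613). Without the arrays with many values at 0 the 48 h difference was the same, with a standard error of 0.11 and a call (adjusted p = 0.0027), and at 12 h it was -0.26 ± 0.11 (adjusted p = 0.0871). The RAD001 glands had 400.1, 419, 435, 314 and 399 at 12 h and 333, 412, 527 and 387 at 48 h, with differences from placebo of 0.18 and 0.24, neither called. The 15 d RAD001 difference of 0.80 ± 0.43 (adjusted p = 0.309) was 0.13 ± 0.10 (adjusted p = 0.576) without the many-zero arrays. The second probe set, Pdpk1 1416501_at, was below the filter in the larger table, with values from 27.5 to 119.

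Akt2 encodes a second AKT isoform, known for its role in insulin action. Akt2 1424480_s_at varied little. Transgenic placebo glands had 177, 264, 247 and 242 at 12 h and 239.9, 290.4, 263, 237 and 235 at 48 h, against 215, 207, 230.4 and 247 and then 246, 219.5, 204 and 231 in wild type glands. At 15 d they ran from 228 through 264 to 295, against 166, 234 and 239.7. The groups overlapped at each time, and the averaged difference of 0.17 ± 0.07 (limma adjusted p = 0.048) was lost in 32 of 49 alternatives, among them leaving out wild type 15 d replicate 1 (0.12, adjusted p = 0.197). Its 4 RAD001 differences lay between -0.05 and 0.09, none called. The dim probe set Akt2 1421324_a_at, below the filter, had values from 27.7 to 105 in the larger table.

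Gsk3b encodes GSK3 beta, a kinase that AKT inhibits by phosphorylation and that marks proteins such as cyclin D1, MYC and beta-catenin for breakdown. Gsk3b 1451020_at had 153, 163, 183 and 175 in transgenic placebo glands at 12 h, against 127, 104, 105 and 96.0 in wild type glands, with no overlap. At 48 h it had 201, 152, 163, 200.2 and 140.3, against 158, 187, 169.6 and 143, and the groups overlapped. At 15 d it ran from 116 through 132 to 236, against 154, 174 and 203 in wild type glands. The genotype difference was 0.64 ± 0.19 at 12 h (limma adjusted p = 0.015), while the values were 0.05 at 48 h and -0.25 at 15 d (adjusted p = 0.341). Geometric means at 12 h, 48 h and 15 d were 168, 170 and 147 in transgenic placebo glands, against 107, 163 and 176 in wild type glands. The change over time was called within wild type glands, but not without wild type 12 h replicate 4 (adjusted p = 0.057). Within transgenic placebo glands it was not called. The dependence of the genotype difference on time was called (adjusted p = 0.0401), but not without array set B (adjusted p = 0.0878) or without wild type 15 d replicate 3 (adjusted p = 0.0983). At 15 d the arrays divided by set: transgenic placebo arrays of set A had 210.1 and 236, and those of set B had 116 to 135. The difference averaged over times was 0.15 (adjusted p = 0.317), and 0.35 ± 0.08 (adjusted p = 0.002) without set B.

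After 48 h of RAD001, Gsk3b had 249, 247, 198 and 242, against 201, 152, 163, 200.2 and 140.3 in transgenic placebo glands, and the ranges met only through RAD001 replicate 4. The difference of 0.46 ± 0.18 was not called (limma adjusted p = 0.174), but it was with array weights (0.53, adjusted p = 0.0462) or without array set B (0.46 ± 0.13, adjusted p = 0.0278). At 12 h RAD001 glands had 261, 173, 189, 167 and 200.01 (difference 0.22), and at 15 d they ran from 102 through 120.1 to 174 (difference -0.20). Against the shared wild type glands, RAD001-treated transgenic glands were higher at 12 h by 0.86 ± 0.18 (adjusted p = 0.001), while the difference was 0.51 at 48 h (adjusted p = 0.0775) and -0.45 at 15 d (adjusted p = 0.183).

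**Figure D4:**
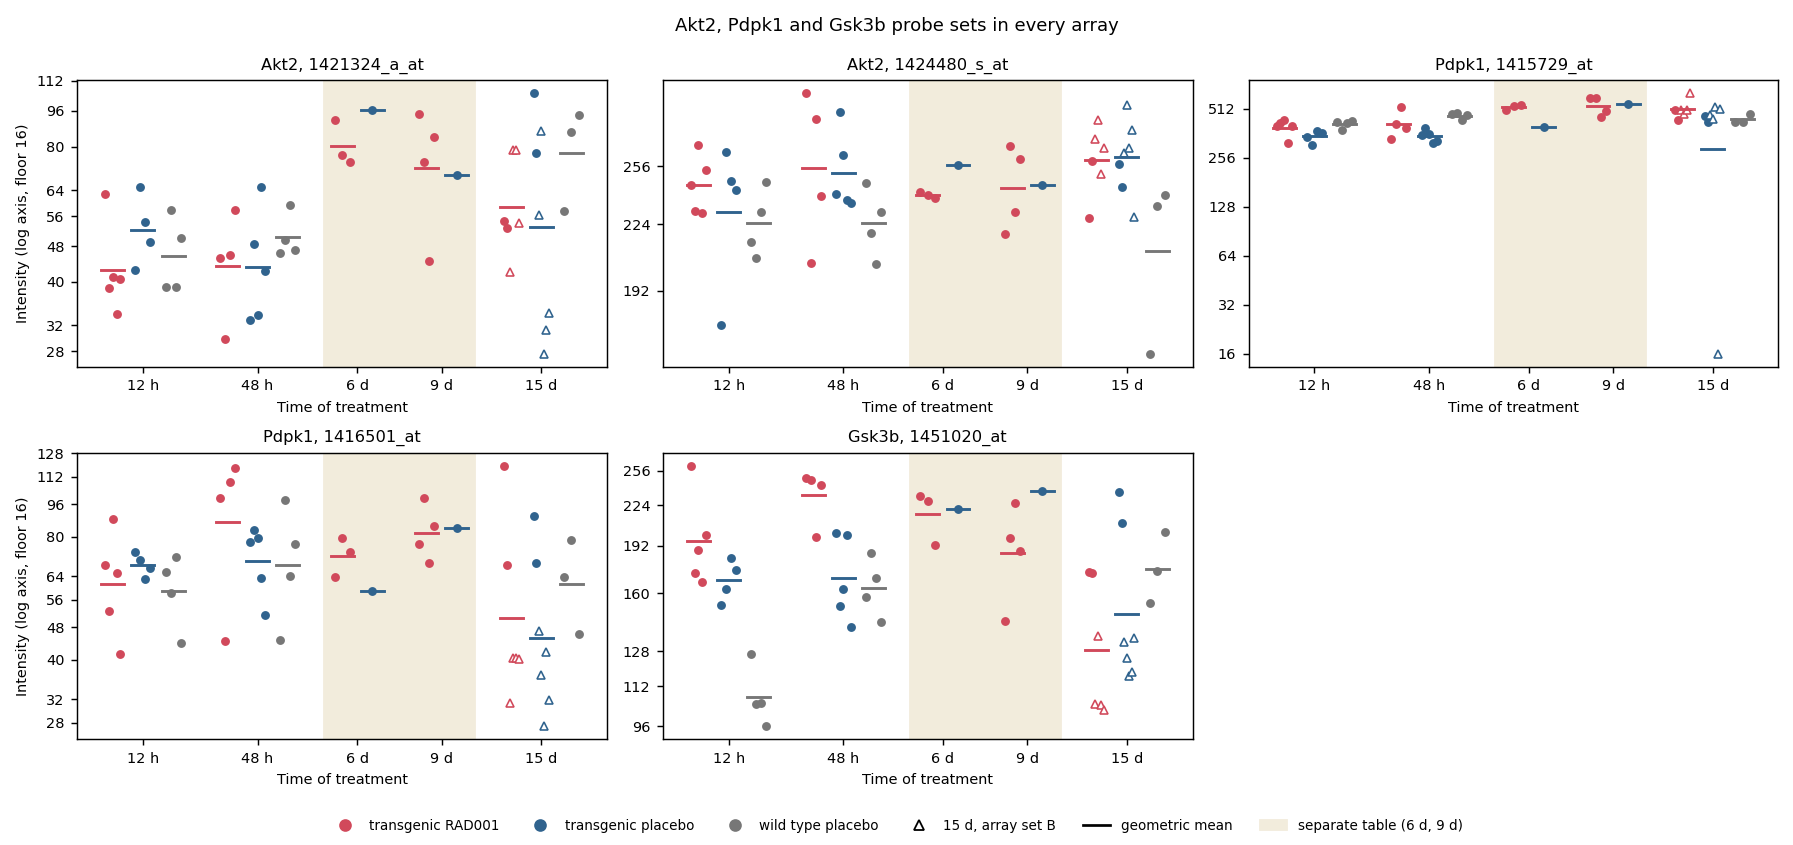
Intensity of the Akt2, Pdpk1 and Gsk3b probe sets in every array, on log axes, with groups, lines and symbols as in the plot of Akt1; 1 Pdpk1 value listed at 0 is drawn at 16. Gsk3b separates transgenic (153 to 183) from wild type glands (96.0 to 127) at 12 h, and its 15 d arrays divide by array set.

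Across all members, RAD001 gave 0 of 9 calls at 12 h, 48 h and 15 d by limma, where 1.47%, 3.45% and 5.53% of all probe sets were called, and 0 of 12 for 6 d and 9 d averaged (background 0.803%). At an unadjusted limma p under 0.05 there were 1, 1 and 2 members at the first 3 and 0 in the smaller table. Over all probe sets tested, 1627, 2304 and 2607 of 13574 passed that threshold, and 1340 of 13576 in the smaller table. The members were Pik3r1 1425515_at at 12 h, Gsk3b at 48 h, and Akt1 1425711_a_at and Pik3r1 1425515_at at 15 d. With standard errors from 0.10 to 0.52 in the larger table, the precision differed widely between probe sets. In the smaller table, with 1 placebo array a time, the 12 differences ran from -0.18 to 0.19. Against wild type, RAD001-treated transgenic glands had 5 of 9 members called at 12 h (background 17.6%), 1 at 48 h (12.5%) and 0 at 15 d (1.65%). Of the 5 calls at 12 h, 3 were lost when 1 wild type array was left out: Akt1 1416657_at without replicate 3 (adjusted p = 0.185), Pik3ca 1423144_at without replicate 1 (0.0715) and Pik3r1 1451737_at without replicate 2 (0.206). The call at 48 h, of Pik3r1 1425515_at, was lost without RAD001 replicate 1. The comparisons against wild type share their wild type arrays with those of genotype.

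**Figure D5:**
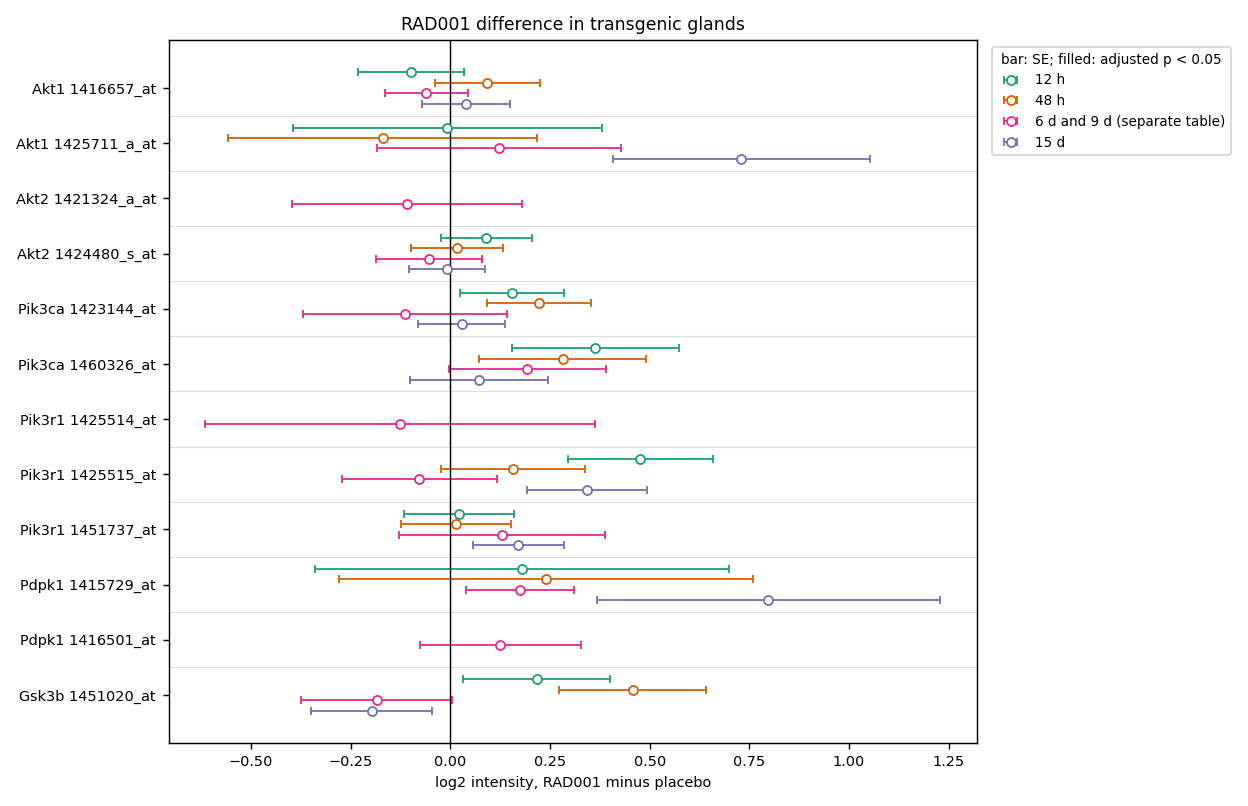
RAD001 minus placebo difference in transgenic glands (log2 intensity; bars are standard errors) at 12 h, 48 h and 15 d and, from the separate table, 6 d and 9 d averaged; 3 probe sets passed the filter only in the separate table. All points are open, since no adjusted p was under 0.05, and the highest values, 0.80 for Pdpk1 and 0.73 for Akt1 1425711_a_at at 15 d, were 0.13 and 0.12 without the arrays with many values at 0.

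The rest of the pathway was read from 7 lists of 82 other genes, of which 56 were tested through 96 probe sets. For genotype averaged over times, 13 probe sets were higher and 14 lower in transgenic glands, 28.1% against 33.5% of all probe sets, with a median of -0.04 in both. Upstream of PI3K, Irs1, the insulin receptor adaptor that binds p85, fell by 1.39 on the log2 scale (SE 0.13, limma adjusted p = 2.1e-10), and Egfr, a growth factor receptor, rose by 0.40 (adjusted p = 7.73e-05). Among other PI3K subunits, Pik3c2a, a class II catalytic enzyme, was higher by 0.39 (adjusted p = 0.00104), and Pik3cg, a catalytic subunit best known from leukocytes, was lower at -0.29 (adjusted p = 0.0075). In the list of brakes on the pathway, 3 of 28 probe sets were higher and 4 lower. Trib2, a pseudokinase in that list whose action as a brake was not tested here, had -0.41. Both Ppp2r2a probe sets, for a regulatory subunit of the phosphatase PP2A, had 0.30 and 0.45.

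Among AKT partners, both called probe sets of Hsp90aa1, a chaperone that binds AKT, were higher, at 0.55 and 0.44, and Ilk, which encodes integrin-linked kinase, was lower at -0.35. Acly, an AKT substrate that makes acetyl-CoA for lipid synthesis, was higher at 0.67 (limma adjusted p = 4.16e-05) and was the only 1 of 19 substrate probe sets called. Among GSK3 partners and substrates, 5 of 14 probe sets were lower and 1 higher. All 3 probe sets of Ccnd1, the gene of cyclin D1, were among the lower ones, at -0.96 (adjusted p = 7.23e-11), -1.22 and -0.88. Myc was lower at -0.22 (adjusted p = 0.00864).

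Under RAD001, 2 of the 96 probe sets were called at 12 h (2.08%), 1 at 48 h (1.04%) and 7 at 15 d (7.29%). Of all probe sets tested, 1.47%, 3.45% and 5.53% were called at these times. Gab1, an adaptor of PI3K, rose at 12 h by 0.63 ± 0.15 (limma adjusted p = 0.0259), and Myc by 0.42 (adjusted p = 0.0423). Acly, higher in transgenic glands, fell at 48 h of RAD001, at -0.86 ± 0.20 (adjusted p = 0.014). At 15 d, 2 of the 3 Ccnd1 probe sets rose, by 0.74 (adjusted p = 0.000125) and 0.53 (adjusted p = 0.0024). Myc rose by 0.43, and Pfkfb2, a glycolytic regulator and AKT substrate, fell at -0.68 (adjusted p = 0.00454). In the smaller table none of the lists had a call; the 3 Ccnd1 differences there were 0.95, 0.77 and 0.81, with adjusted p of 0.23, 0.349 and 0.111. Genotype and RAD001 differences share the transgenic placebo arrays. Beside the smooth muscle and luminal counts given above, 3 of 4 basal epithelium probe sets were lower for genotype and none higher.

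The members' own variation over the 42 arrays was described by the genes most like each in Pearson r. Akt1 1425711_a_at was most like Atp9a (r = 0.87), Ergic3 (0.84) and Bsg (0.82), and Akt1 1416657_at reached no r above 0.59 (Rrp7a). Pik3r1 1451737_at was most like Tff1, Hnf4a and Clip4 (0.92 each), Pik3ca 1460326_at most like Kif1b (0.81), and Gsk3b most like Dst (0.82). For Pdpk1 1415729_at the highest r, 0.98 with Nrd1, was 0.74 without the arrays with many values at 0. These arrays share groups and array sets, so the values describe this data set only. When the 9 groups of the larger table were ordered by mean level, no pair of neighbours in the order was free of overlap for any member probe set. The share over all probe sets was not computed, so this is not read as a trait of these genes. Groups further apart in the order could still separate, as Gsk3b did by genotype at 12 h.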

How the data were processed

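Total RNA of mouse ventral prostate was made into biotinylated cRNA for Affymetrix arrays, per the labels' protocols. The authors deposited 1 linear intensity per probe set and array; the sources used here do not give how these were summarised and scaled. No column was left unused (0). Intensities below 16 were set to 16 and log2 was taken. Of the larger table, 2 probe sets with a value over 65536 were left out. Probe sets whose mean log2 reached the 40th percentile of their table were tested, 13574 and 13576, each apart from others of its gene. Symbols came from the platform annotation: 20380 probe sets had a single symbol, 691 several and 1555 none. limma 3.58.1 (R 4.3.3) was fitted to group means over all arrays of a table, with a trended prior and Benjamini-Hochberg adjustment; the pipeline was tested on simulated data. The 2 Akt1 probe sets were compared by exact permutation. p-values measure the spread between arrays labelled as biological replicates. Precision is limited by how many arrays a group has.

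The members and lists were chosen with earlier results of these data known. All member probe sets were eligible to be named, as were up to 4 probe sets of smallest p per pathway list in each main comparison, and the 3 genes of highest Pearson r for each Akt1 probe set and for the brightest probe set of each other member. Alternatives covered the floor, filter, normalisation, 1 probe set per gene, array weights, the groups fitted, a replicate block, the arrays with many values at 0, the times included and each array left out in turn. Those on the 15 d array sets were chosen after seeing the data. RefSeq promoter windows of GRCm38.p6 were matched by symbol; the probe sets' own coordinates were not used.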

Additional observations from a re-analysis of the deposited data

Results flagged for a closer look

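In 8 of 108 tests of an array group for 1 member probe set (7.41%), 1 array lay far from the others of its group; chance gives about 1 in 20. On the log2 scale these were Akt1 1416657_at at 9.32 in transgenic placebo 48 h replicate 4, Akt1 1425711_a_at at 7.70 in RAD001 9 d replicate 2, Pik3ca 1460326_at at 7.48 in wild type 12 h replicate 4, and Gsk3b at 7.63 in RAD001 48 h replicate 4. Pik3r1 1425514_at and Pdpk1 1415729_at were at the floor of 4 in transgenic placebo 15 d replicate 9, where both are listed at 0. Pdpk1 1415729_at was also low in RAD001 12 h replicate 4, at 8.29, and in wild type 12 h replicate 2, at 8.56.

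The genotype difference depended on time for 4 of 9 member probe sets by limma, where 21.3% of all probe sets did. The adjusted p was 0.0136 for Pik3r1 1451737_at, 0.0256 for Akt1 1425711_a_at, 0.038 for Akt1 1416657_at and 0.0401 for Gsk3b. Without array set B of 15 d, the adjusted p was 0.123 for Akt1 1416657_at, 0.141 for Akt1 1425711_a_at and 0.0878 for Gsk3b.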

How the results depend on the processing

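No member result reversed in any alternative; 3390 kept their side of the threshold and direction, 153 lost a call, 68 gained one and 100 changed sign without a call on either side. Numbers of called probe sets moved more, and the cause was not tested. For RAD001-treated transgenic against wild type glands at 15 d, 224 were called, against 356 with a floor of 64, 368 after quantile normalisation and 143 with 1 probe set per gene. Array weights gave 5313 for genotype at 48 h, 4552 for genotype by time, 206 for RAD001 by time, 5213 for wild type over time, for RAD001 1208 at 12 h, 978 at 48 h and 413 at 15 d, 232 at 6 d and 9 d, and 4050, 2607 and 2387 for RAD001-treated against wild type at 12 h, 48 h and 15 d. Fitting the compared groups only gave 708 for genotype at 15 d, for RAD001 106 at 12 h, 306 at 48 h and 219 at 15 d, 15 for RAD001-treated against wild type at 15 d and 28 for RAD001 by time. Without the arrays with many values at 0 these were 1896 for genotype at 15 d, 431 for RAD001 at 15 d, 470 for RAD001-treated against wild type at 15 d, 35 for RAD001 by time and 176 at 6 d and 9 d. Times alone gave 19 at 6 d and 32 at 9 d.

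Replicate numbers were not treated as a pairing. Over 32 same-numbered pairs the correlation of deviations ran from -0.245 to 0.507, and 3 pairs, all at 15 d, were over 0.1. For RAD001 against placebo at 15 d, replicates 1 and 2 had 0.428 and 0.507. Those replicates are the set A arrays of both groups, so replicate number and array set go together there. A fit with the replicate block gave 869 for genotype at 15 d, 376 for RAD001 at 15 d, 149 for RAD001-treated against wild type at 15 d, 1436 for genotype by time, 4059 for transgenic placebo over time and 3 at 6 d and 9 d. With the array set as a block there were 604 for genotype at 15 d, 311 and 818 for RAD001 at 12 h and 48 h, 3 for RAD001-treated against wild type at 15 d, 1345 for genotype by time, 137 for RAD001 by time and 2397 for transgenic placebo over time. Without array set B there were 365 for genotype at 15 d, for RAD001 419 at 12 h, 950 at 48 h and 61 at 15 d, 2725 and 44 for RAD001-treated against wild type at 48 h and 15 d, 1198 for genotype by time, 14 for RAD001 by time and 1657 for transgenic placebo over time; within set B without the many-zero arrays, RAD001 at 15 d had 224.

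Leaving out 1 array at a time, the lowest and highest counts were 4129 and 4855 for genotype averaged, 2202 and 3199, 2764 and 3857, and 1095 and 3983 for genotype at 12 h, 48 h and 15 d, 56 and 265, 201 and 627, and 510 and 1049 for RAD001 at those times, 53 and 143 at 6 d and 9 d, 1790 and 2715, 1152 and 2009, and 11 and 979 for RAD001-treated against wild type, 1536 and 3908 for genotype by time, 28 and 97 for RAD001 by time, 2385 and 3838 for wild type over time and 5977 and 7047 for transgenic placebo over time.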
